A study of Mus musculus with 32 samples.

Results

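The proteasome genes examined here were all genes of the deposited tables whose symbol begins with Psm, a letter from a to g and a digit, that is the families Psma, Psmb, Psmc, Psmd, Psme, Psmf and Psmg. This name rule gave 48 of 24952 genes. Of these, 47 were among the 13990 genes with enough reads to be tested, and the remaining gene, the testis subunit Psma8, was not. By role the 48 genes comprised 7 alpha ring subunits and 7 beta ring subunits of the 20S core, 3 immunoproteasome subunits, 6 ATPases and 11 non-ATPase subunits of the 19S regulatory particle, 3 assembly factors of the regulatory particle (Psmd5, Psmd9 and Psmd10), 4 activator genes (Psme1, Psme2, Psme3 and Psme4), Psmf1, 4 assembly chaperones of the core, Psma8, and Psmc3ip, a cofactor of meiotic recombination that carries the name but is not a proteasome subunit.

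The libraries came from the tibialis anterior (TA) muscle of male wild type C57BL/6JRj mice, which lived in single cages on an AIN93M diet, for longer in the older group. Regions marked with fluorescent α-bungarotoxin, which binds the acetylcholine receptors of the neuromuscular junction, were cut out by laser as synaptic samples (NMJ), and other regions as extra-synaptic samples (xNMJ). Polyadenylated RNA was amplified with the SMART-Seq v4 kit. Both regions were taken at 10 and at 30 months of age, which gave 4 groups (10m NMJ, 30m NMJ, 10m xNMJ, 30m xNMJ) of 8 libraries each. A captured region holds pieces of muscle fibre together with Schwann cells, fibroblasts, immune cells and vessels, and fewer cells of a type and less RNA per cell cannot be told apart in such samples. The labels do not say which libraries came from 1 animal, so p values measure the spread between these samples.

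Total counts of 10m xNMJ libraries ran from 4026648 to 10258988, and those of 10m NMJ libraries from 7080227 to 16516788. At 30 months the totals were 4424672 to 13182475 for xNMJ, against 6703228 to 16422527 for NMJ. The mean insert size given in the labels also differed between regions, with medians of 93.5 and 117.5 bp in xNMJ and NMJ at 10 months, and of 96 and 107 bp at 30 months. The insert of 10m NMJ replicate 8 was 52 bp, where the other libraries of its group had 109 to 131 bp, and the fits with insert size as a covariate include it. Synaptic markers (Chrne, Chrna1, Chrnd, Colq, Etv5, Musk and Prkar1a) followed the labels, and 7 of 7 were called higher in NMJ at each age. Their summed level, in CPM (counts scaled to the library total), had medians of 66.7 and 3483 for xNMJ and NMJ at 10 months, and of 63.0 and 3346 at 30 months. One library stood apart from its group. In 30m xNMJ replicate 5 the synaptic markers summed to 835 CPM, and it scored 21.66 on the first principal component of all genes, where the other xNMJ libraries scored -38.5 or lower and the NMJ libraries 30.9 or higher. Without it, 1 proteasome gene was called between regions at 30 months, the same gene as with it.

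The 26S proteasome degrades proteins tagged with ubiquitin. Its 20S core is a barrel of outer alpha rings and inner beta rings, in which 3 of the beta subunits (encoded by Psmb5, Psmb6 and Psmb7) cut peptide bonds, and its 19S particle recognises, unfolds and feeds in the substrate with ATPases (Psmc genes) and non-ATPase subunits (Psmd genes). Under interferon, and in immune cells, the products of Psmb8, Psmb9 and Psmb10 take the place of the cutting subunits to make the immunoproteasome, and in skeletal muscle the ubiquitin-proteasome system is the main route by which myofibrillar proteins are broken down during atrophy.

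Levels of different genes were compared as TPM, which accounts for transcript length and library total. The standard cutting subunit Psmb6 had the highest mean over the libraries (444 TPM), followed by the alpha subunits Psma7 (383 TPM) and Psma3 (330 TPM) and the beta subunit Psmb4 (325 TPM). The ATPase Psmc3 was the most abundant 19S transcript (283 TPM). At the other end of the order were the assembly factor Psmd5 (4.62 TPM), Psmf1 (4.21 TPM), a regulator named for inhibiting the core in vitro, and the immunoproteasome subunit Psmb9 (2.98 TPM). The alpha and beta genes thus spanned 88.5 TPM (Psma2) to 444 TPM, and the 19S genes 20.7 TPM (Psmd3) to 283 TPM. Psma8 was at 0 in all libraries of 10m xNMJ and 30m NMJ and did not exceed 0.291 CPM in any library.

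The first question was whether synaptic regions differ from the rest of the fibre in proteasome transcripts. At 10 months, the alpha ring subunits Psma3 and Psma5 were higher in NMJ than in xNMJ, and no proteasome gene was called lower. At 30 months no proteasome gene was called higher, and the 19S lid subunit Psmd8 was lower in NMJ. A gene was called at an adjusted p under 0.05 in edgeR's quasi-likelihood test, with Benjamini-Hochberg adjustment over all 13990 genes, here written edgeR adjusted p. At 10 months 2 of 47 were called higher, against 6.5% of all genes tested, and 0 of 47 lower, against 5.05% of all genes (unadjusted p under 0.05 in 2, Psmd8 and Psmd9; DESeq2 also called 0 lower). At 30 months 0 of 47 were called higher, against 5% of all genes (unadjusted p under 0.05 in 2, Psmb10 and Psmd3; DESeq2 called 1, Psmb10), and 1 of 47 lower, against 4.25% of all genes. In this edgeR fit the share of proteasome genes called was below that of all genes in each direction at each age. With libraries of an age paired by replicate number (replicate block), 4 of 47 were called higher at 10 months, beside 1032 of 13990 genes. In that fit the share of proteasome genes called higher was not below that of all genes. In the fit without a replicate block, the median log2 fold change of the 47 proteasome genes was 0.04 at 10 months and 0.14 at 30 months. That of all genes in the same fit was 0.00 and -0.01.

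**Figure D1:**
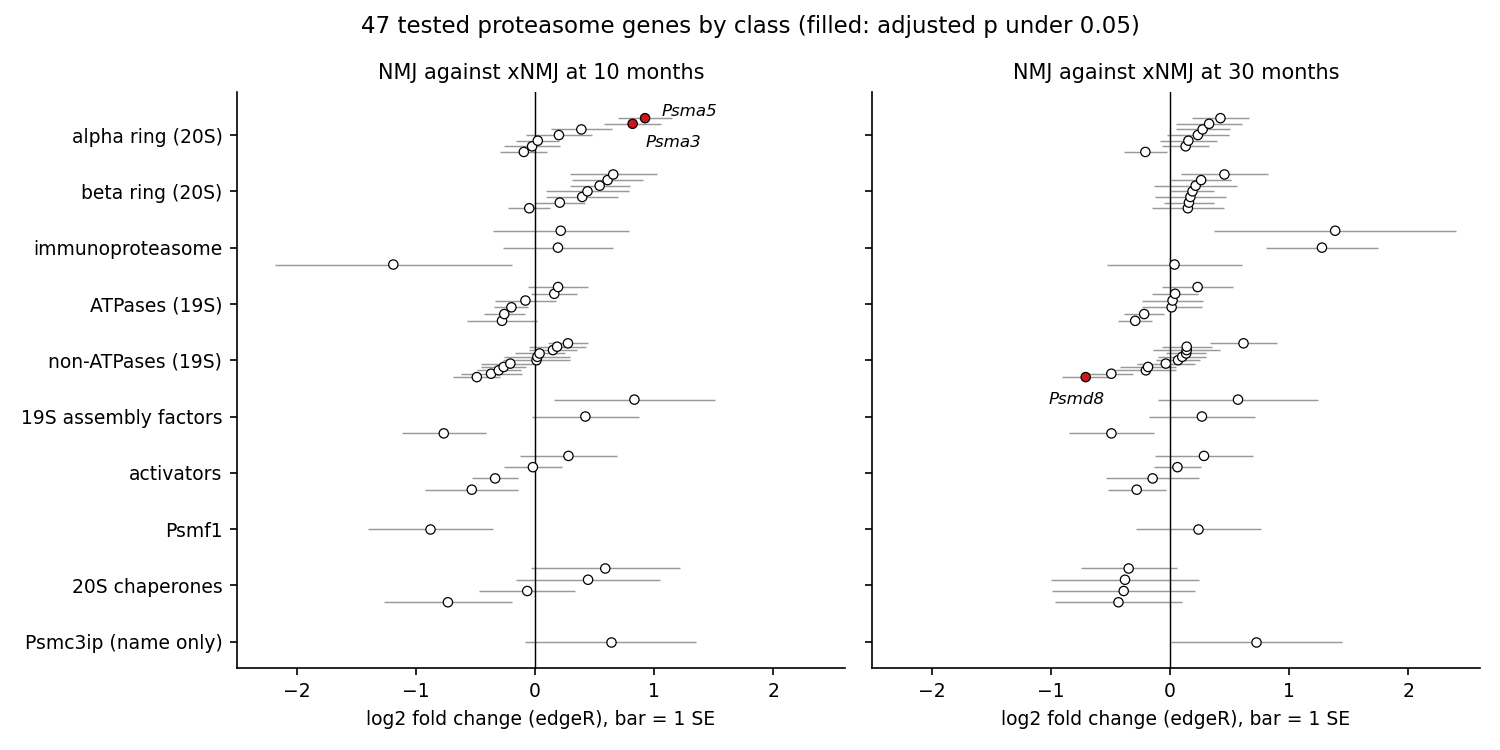
Log2 fold change between NMJ and xNMJ of the 47 tested proteasome genes at 10 months (left) and 30 months (right), in rows by class, with bars of 1 standard error and filled points for an edgeR adjusted p under 0.05. Psma3 (0.82) and Psma5 (0.93) are the filled points at 10 months and Psmd8 (-0.71) that at 30 months.

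Psma5, an alpha ring subunit (ENSMUSG00000068749, chr3:108256926-108279974 on GRCm38), had the highest log2 fold change of the 47 genes at 10 months. Its lowest, median and highest TMM-scaled CPM were 30.2, 59.8 and 93.4 in 10m xNMJ, and 73.9, 99.2 and 183 in 10m NMJ. All 8 NMJ libraries lay above the median of xNMJ, although the groups overlapped. The log2 fold change was 0.93 ± 0.23 (SE, n = 8 against 8), 1.9-fold, with an edgeR adjusted p of 0.00495. At 30 months the corresponding CPM were 47.2, 79.6 and 108 in xNMJ, and 66.1, 89.7 and 147 in NMJ. These groups overlapped over most of their range, and the log2 fold change was 0.27 ± 0.23 (95% interval -0.17 to 0.72, edgeR adjusted p = 0.549). The difference between the ages, tested as the interaction, was -0.65 ± 0.32 on the log2 scale (edgeR unadjusted p = 0.049, adjusted p = 0.974), so that the regional difference was not shown to change with age.

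Psma3, another alpha ring subunit (ENSMUSG00000060073, chr12:70974621-70996347), was the more abundant of the pair. Its lowest, median and highest CPM were 151, 185 and 355 in 10m xNMJ, and 295, 354 and 621 in 10m NMJ. All 8 NMJ libraries again lay above the xNMJ median, and the highest libraries of both regions were numbered replicate 4. NMJ exceeded xNMJ by a log2 fold change of 0.82 ± 0.24 (SE, n = 8 against 8; 1.77-fold; edgeR adjusted p = 0.0188). This call depended on 1 library and on insert size, since it was 0.69 (edgeR adjusted p = 0.0601) without 10m NMJ replicate 4 and 0.73 (edgeR adjusted p = 0.0552) with insert size as a covariate. At 30 months the CPM were 144, 232 and 386 in xNMJ, and 218, 283 and 658 in NMJ, with the highest value in NMJ replicate 5. The groups overlapped and the log2 fold change was 0.42 ± 0.24 (95% interval -0.04 to 0.89, edgeR adjusted p = 0.328). Without 30m xNMJ replicate 5 the 30-month values were 0.54 for Psma3 and 0.36 for Psma5 (edgeR adjusted p = 0.17 and 0.378).

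Psmd8, a subunit of the 19S lid (ENSMUSG00000030591, chr7:29174188-29180701), went the other way. In 30m xNMJ its lowest, median and highest CPM were 116, 162 and 230, and in 30m NMJ 78.5, 98.1 and 135. All 8 NMJ libraries lay below the median of xNMJ, with overlap between 116 and 135 CPM. NMJ differed from xNMJ by -0.71 ± 0.20 on the log2 scale (SE, n = 8 against 8; edgeR adjusted p = 0.016), and it stayed past the threshold when any single library was left out (edgeR adjusted p 0.00487 to 0.0442). The call was lost with the low-count filter removed (-0.65, edgeR adjusted p = 0.066) and with limma on log2(TPM + 1) (-0.12, limma adjusted p = 0.669). On the log2(TPM + 1) scale the median of all genes was itself 0.49 higher in NMJ at 30 months. At 10 months the CPM were 88.2, 123 and 266 in xNMJ, and 64.3, 96.0 and 118 in NMJ, where again every NMJ library lay below the xNMJ median. That difference was -0.49 ± 0.20 (edgeR adjusted p = 0.114), and the interaction was -0.22 ± 0.28 (edgeR adjusted p = 1).

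**Figure D2:**
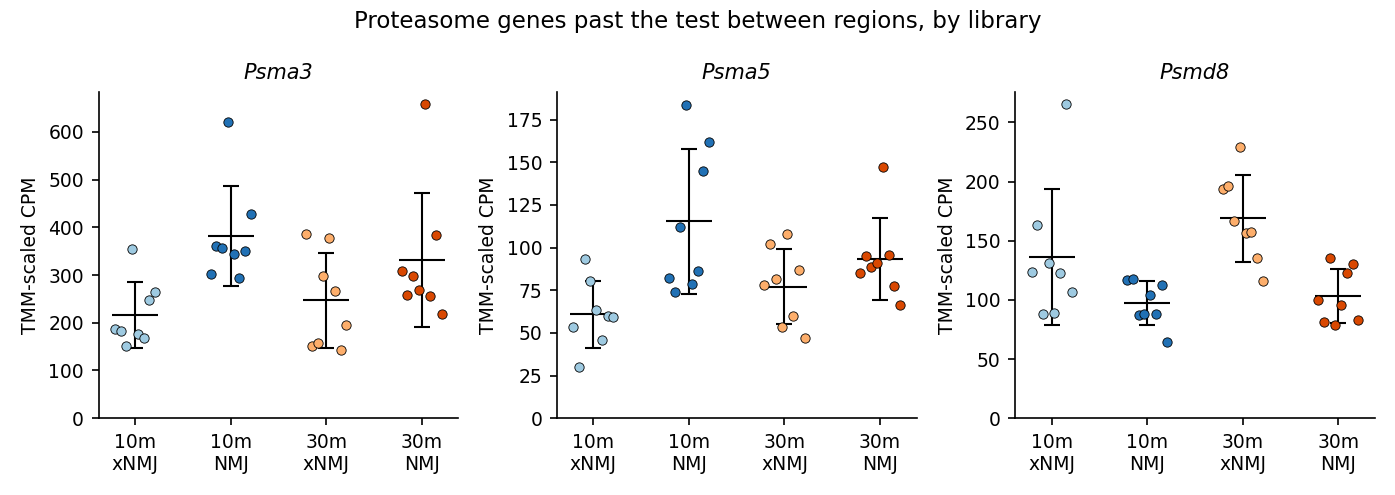
TMM-scaled CPM of Psma3, Psma5 and Psmd8 by library, with 8 points per group and bars at the mean and 1 SD. In 10m NMJ the points of Psma5 run from 73.9 to 183 against 30.2 to 93.4 in 10m xNMJ, and in 30m NMJ those of Psmd8 from 78.5 to 135 against 116 to 230 in 30m xNMJ.

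Sequences upstream of these 3 genes are shown because they are the proteasome genes that differed between regions. Each run is the 250 bases before the start of the gene in RefSeq on GRCm38.p6, 5′ to 3′ on the gene's strand, and capitals mark a CCAAT box, a common promoter element bound by the factor NF-Y.
Psma3 (chr12:70974373-70974622, plus strand): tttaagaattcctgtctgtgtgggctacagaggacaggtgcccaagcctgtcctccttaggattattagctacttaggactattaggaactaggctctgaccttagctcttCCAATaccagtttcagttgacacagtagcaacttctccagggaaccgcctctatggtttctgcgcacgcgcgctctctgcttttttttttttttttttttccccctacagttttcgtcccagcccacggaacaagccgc
Psma5 (chr3:108256676-108256925, plus strand): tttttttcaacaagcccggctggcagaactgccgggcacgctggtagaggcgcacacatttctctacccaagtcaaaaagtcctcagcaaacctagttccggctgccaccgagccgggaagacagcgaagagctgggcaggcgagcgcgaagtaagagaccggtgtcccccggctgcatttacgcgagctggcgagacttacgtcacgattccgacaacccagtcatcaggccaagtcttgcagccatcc
Psmd8 (chr7:29180674-29180923, minus strand): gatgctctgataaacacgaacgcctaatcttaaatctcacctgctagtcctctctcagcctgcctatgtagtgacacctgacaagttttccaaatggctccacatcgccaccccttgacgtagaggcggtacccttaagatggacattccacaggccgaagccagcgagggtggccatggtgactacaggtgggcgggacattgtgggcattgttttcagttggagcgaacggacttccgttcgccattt
Of 3 motifs searched on both strands in these windows (CCAAT, the antioxidant response core TGACNNNGC bound by Nfe2l1 and Nfe2l2, and the interferon response motif GAAANNGAA), only CCAAT was found in Psma3, and none was found in Psma5 or Psmd8. Promoters were given for 40 of the 48 genes. CCAAT was in 14 of these 40 (35%), against 37.49% of the 27025 genes of the table. The interferon motif was in 3 of 40 (7.5%), against 8.181% of all genes, and the members with it were Psmb3, Psmd4 and Psmd9. The antioxidant core was in 5 of 40 (12.5%), against 11.52% of all genes. Its matches are shown with up to 10 bases on each side, in capitals, because the factors that bind it are known to drive proteasome genes and Nfe2l1 itself is described further on.
Psmb5 (chr14:54618024-54618052, minus strand): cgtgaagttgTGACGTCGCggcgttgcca
Psmb6 (chr11:70525338-70525356, plus strand): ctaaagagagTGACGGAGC
Psmc6 (chr14:45329587-45329615, plus strand): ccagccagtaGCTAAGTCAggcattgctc
Psmd12 (chr11:107479278-107479299, plus strand): tctGCTGTGTCAcatttgcccc
Psmd9 (chr5:123228149-123228177, plus strand): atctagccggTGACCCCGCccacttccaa
In Psmc6 and Psmd12 the capitals hold the motif on the opposite strand. Such a match is a description of the letters and not of a bound site.

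Most of the 20S core genes, with Psma3 and Psma5 counted among them, had values above 0. The median log2 fold change of all genes tested was 0.00 at 10 months and -0.01 at 30 months. Over the 14 alpha and beta ring genes, Psma3 and Psma5 included, it was above 0 in 11 at 10 months, with a median of 0.39. At 30 months it was above 0 in 13 of the 14, with a median of 0.20. Single libraries set much of these medians, since the median at 10 months was 0.21 without 10m NMJ replicate 4, and that at 30 months was 0.03 (8 of 14 above 0) without 30m NMJ replicate 5 and 0.39 without 30m xNMJ replicate 5. In the beta ring the values at 10 months were 0.66 ± 0.36 for Psmb6 (edgeR adjusted p = 0.287), 0.61 ± 0.30 for Psmb3 (edgeR adjusted p = 0.213) and 0.54 ± 0.25 for Psmb1 (edgeR adjusted p = 0.182). None of these beta ring genes passed the threshold in the fit without a replicate block, although all 8 NMJ libraries exceeded the xNMJ median for Psmb6 and Psmb1. With the replicate block Psmb3 and Psmb6 were called higher, and Psmb1 was not. The alpha subunits Psma6 (-0.09) and Psma4 (-0.02) and the beta subunit Psmb4 (-0.05) were the core genes below 0 at 10 months, and Psma7 (-0.21 ± 0.18) the core gene below 0 at 30 months.

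The 17 genes of the 19S particle did not lean that way. Their log2 fold change was above 0 in 8 and below 0 in 9 at 10 months, with a median of -0.08, and above 0 in 10 and below 0 in 7 at 30 months, with a median of 0.02 (-0.11 and 6 above 0 without 30m NMJ replicate 5, 0.07 and 11 above 0 without 30m xNMJ replicate 5). The 10-month median ran from -0.16 without 10m xNMJ replicate 5 to -0.02 without 10m NMJ replicate 6. Among the 6 ATPases no value at 10 months was below -0.28 or above 0.20, none at 30 months was below -0.29 or above 0.23 (Psmc4, 0.35 without 30m xNMJ replicate 5), and none was called. The ATPase Psmc1 was at -0.29 ± 0.14 at 30 months (edgeR adjusted p = 0.238). Among the 11 non-ATPases, the lid subunit Psmd6 was closest to Psmd8. Its CPM were 149, 183 and 389 (lowest, median and highest) in 30m xNMJ, and 113, 155 and 198 in 30m NMJ, so the groups overlapped. Psmd6 differed by -0.49 ± 0.18 on the log2 scale (edgeR adjusted p = 0.0919), and Psmd6 was called lower, besides Psmd8, when replicate 5 of both 30-month groups was left out. The lid subunit Psmd3 was at 0.62 ± 0.28 at 30 months (edgeR adjusted p = 0.19) and 0.02 ± 0.28 at 10 months.

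Summed over genes, the core and the regulatory particle can be set side by side in each library on the TPM scale. The 14 core genes summed to between 1968 and 2966 TPM (median 2363) in 10m xNMJ, and to between 3152 and 5544 TPM (median 3918) in 10m NMJ. At 30 months the core sum was between 2063 and 3189 TPM (median 2364) in xNMJ, and between 3405 and 6118 TPM (median 3944) in NMJ. NMJ and xNMJ did not overlap in the core sum at either age, and the highest 30m xNMJ sum was 2583 TPM without replicate 5. The 17 genes of the 19S particle summed to medians of 1424 and 1876 TPM in xNMJ and NMJ at 10 months, and of 1402 and 2071 TPM at 30 months, with overlap between the regions at both ages. The ratio of core to 19S sums had medians of 1.58 and 2.01 for xNMJ and NMJ at 10 months, and of 1.58 and 1.84 at 30 months, and reached up to 3.46 in 10m NMJ replicate 4, 3.03 in 30m NMJ replicate 5 and 2.29 in 30m xNMJ replicate 5. Without that last library the 30m xNMJ ratio had a median of 1.53 and reached 1.72.

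These sums need the scale in view, because on the log2(TPM + 1) scale (pseudocount 1) the median of all genes was itself 0.37 higher in NMJ at 10 months and 0.49 higher at 30 months. With limma on that scale, 15 of 47 proteasome genes were called higher in NMJ at 10 months, against 19.2% of all genes called higher, and 27 of 47 at 30 months, against 25% of all genes called higher. Relative to the shift of all genes, the median of the 14 core genes was 0.44 at 10 months and 0.34 at 30 months, and that of the 17 genes of the 19S particle -0.01 and 0.18. At 10 months 12 of 14 core genes and 8 of 17 genes of the 19S particle lay above the shift, and at 30 months 13 of 14 and 13 of 17. When TPM values were rescaled with TMM factors, limma called the same 2 genes higher at 10 months (Psma3 and Psma5), and Psmd8 lower with Psmb10 higher at 30 months.

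**Figure D3:**
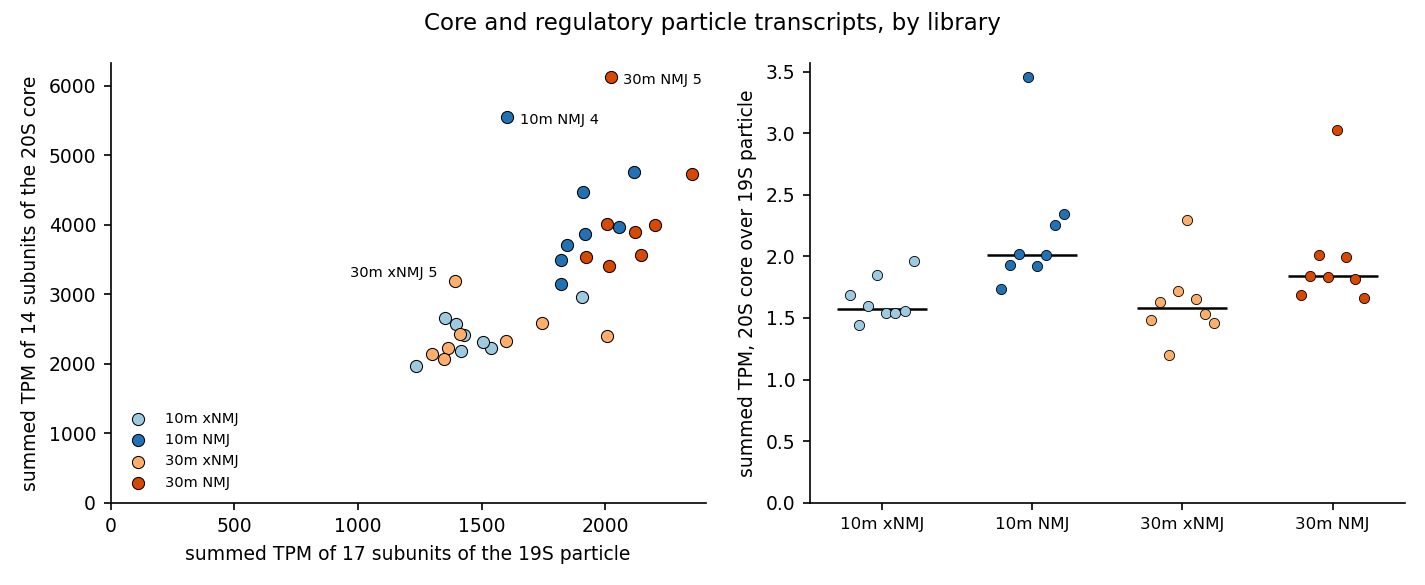
Left, summed TPM of the 14 core genes against summed TPM of the 17 genes of the 19S particle, with a point for each of the 32 libraries. Right, the ratio of the sums by group, with lines at the medians (1.58, 2.01, 1.58 and 1.84), where 10m NMJ replicate 4, 30m NMJ replicate 5 and 30m xNMJ replicate 5 lie above the rest of their groups.

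Single libraries carried much of the spread within groups. In 30m NMJ replicate 5, all 14 core genes lay above their group median, by a median of 0.88 on the log2 scale, while the genes of the 19S particle were 0.07 above theirs, and it was the highest library of its group for 23 of 47 proteasome genes. In 10m NMJ replicate 4 the core genes were 0.76 above and the 19S genes -0.10 from their group medians. In 30m xNMJ replicate 5, the library that stood apart in synaptic markers, the corresponding values were 0.77 and 0.28, and it was the highest of its group for 17 of 47 genes. These 3 libraries also had long inserts (129, 126 and 130 bp) and deep totals (16422527, 13208633 and 13182475 counts). Among the other 10m NMJ libraries, the core genes were -0.01 from their group median in replicate 2, which had an insert of 131 bp, and 0.45 and 0.29 above it in replicates 7 and 8, which had 14510810 and 16516788 counts. In the deepest 10m xNMJ libraries, replicates 4 and 7 (10020085 and 10258988 counts), they were 0.50 and 0.41 above. The part of insert size and depth in their profile was not tested.

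The cutting subunits of the standard core were much more abundant than those of the immunoproteasome. On the TPM scale, Psmb6 had medians of 218 and 506 for xNMJ and NMJ at 10 months and of 259 and 538 at 30 months, and Psmb5, in this same order of groups, of 230, 363, 186 and 326. Psmb7 was lower, with medians of 72.1, 142, 79.0 and 136 TPM. Their immune counterparts had medians, in the same order, of 16.7, 34.6, 19.6 and 63.3 TPM for Psmb10, 8.81, 10.9, 11.8 and 21.1 TPM for Psmb8, and 1.37, 1.44, 0.285 and 2.92 TPM for Psmb9. Immunoproteasome transcripts thus made up a median of 5.58% (xNMJ) and 4.01% (NMJ) of the summed TPM of the 6 cutting subunits at 10 months, and of 6.54% and 8.91% at 30 months. The ranges were wide and overlapped (2.05% to 14.7%, 3.1% to 7.91%, 1.12% to 9.96% and 2.18% to 13.1%), and no difference between groups was tested in this share.

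**Figure D4:**
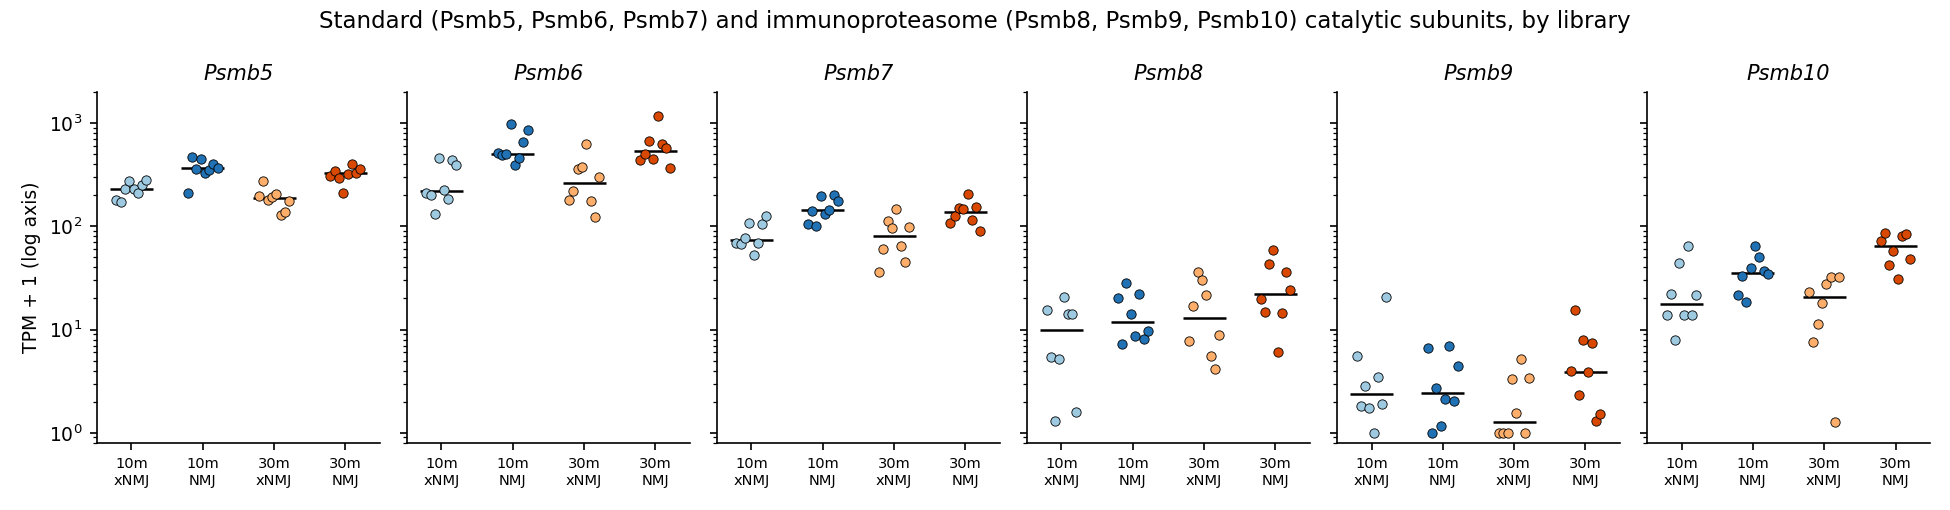
TPM + 1 of the cutting subunits by library on a log axis, with the 3 standard subunits and the 3 immunoproteasome subunits in separate panels and 8 points per group. The medians of Psmb6 (218 to 538 TPM by group) lie far above those of Psmb9 (0.285 to 2.92 TPM), which has libraries at 0 in every group except 30m NMJ.

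Psmb10 had the clearest regional difference of the immune subunits, at 30 months. Its lowest, median and highest CPM were 0.24, 12.4 and 19.3 in 30m xNMJ, and 15.5, 26.3 and 42.0 in 30m NMJ. All 8 NMJ libraries lay above the xNMJ median, and the groups overlapped between 15.5 and 19.3 CPM. On the log2 scale the difference was 1.28 ± 0.47 (95% interval 0.36 to 2.19), with an edgeR adjusted p of 0.0844, so it did not pass in the edgeR test, while DESeq2 called it. The lowest 30m xNMJ value was that of replicate 7. It lay below the count floor of 3, which is 0.625 CPM before TMM scaling in that library. The Psmb10 difference without replicate 7 is not shown. Without 30m xNMJ replicate 5 it was 1.45 (edgeR adjusted p = 0.0531). At 10 months its CPM were 4.01, 10.0 and 31.7 in xNMJ, and 6.95, 16.6 and 27.5 in NMJ, and the log2 fold change was 0.19 ± 0.46 (edgeR adjusted p = 0.853). The interaction was 1.08 ± 0.65 (edgeR adjusted p = 1).

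Psmb8 and Psmb9 varied more between libraries than between groups. At 10 months the CPM of Psmb8 ran from 0.472 to 31.6 (median 13.7) for xNMJ and from 7.25 to 29.5 (median 14.9) for NMJ. At 30 months it ran from 4.8 to 62.4 (median 21.7) for xNMJ and from 7.29 to 60.7 (median 22.2) for NMJ. All groups overlapped, and the log2 fold change between regions was 0.22 ± 0.57 at 10 months and 0.04 ± 0.57 at 30 months (edgeR adjusted p = 0.868 and 0.98). Psmb9 had few counts, and was at 0 in 1, 1, 4 and 0 of 8 libraries (xNMJ and NMJ at 10 months, then xNMJ and NMJ at 30 months). Its medians were 1.44, 0.842, 0.574 and 2.24 CPM, and 10m xNMJ replicate 8 alone held 98 counts (17.4 CPM). The log2 fold change at 10 months was -1.19 ± 0.99 (edgeR adjusted p = 0.524), and turned to 0.11 (edgeR adjusted p = 0.965) without that library. At 30 months it was 1.39 ± 1.02 (edgeR adjusted p = 0.485), and 0.90 without 30m NMJ replicate 2. Psmb9 also shares exon sequence with the overlapping peptide transporter gene Tap1 on the other strand (212 bases), and reads inside that stretch cannot be told apart without strand.

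Marker transcripts of cells other than muscle fibres also differed between the regions, and immune cells are a usual source of immunoproteasome transcripts. Of all genes tested, 6.5% were called higher and 5.05% lower in NMJ at 10 months, and 5% and 4.25% at 30 months. With its own marker list, the paper found glial cells to be the only type consistently enriched in NMJ regions. Of 7 macrophage markers, 4 were called higher in NMJ at each age, and they summed to medians of 22.8 and 104 CPM in xNMJ and NMJ at 10 months, and 14.9 and 113 CPM at 30 months. Mrc1 was the most abundant of them in NMJ at both ages (33.3 and 32.9 CPM on average), and the defining marker Adgre1 was at 0 in all 8 libraries of 30m xNMJ. Of 7 leukocyte and antigen-presenting markers (5 tested), 3 were called higher at 10 months and 1 at 30 months, with summed medians of 21.8, 174, 32.8 and 191 CPM in the order just given and Cd74 the most abundant in NMJ. Fibroblast markers (4 of 5 called higher at each age, led by Dcn) had summed medians of 143, 1154, 161 and 1010 CPM, and Schwann markers (5 of 5 at each age) of 11, 191, 11.8 and 171 CPM. Muscle fibre markers were lower in NMJ, with 4 of 7 called lower at 10 months and 5 of 7 at 30 months, and Tnnt3 the most abundant (28141 and 14862 CPM on average in xNMJ and NMJ at 10 months). Of 5 endothelial markers 0 were called at 10 months (edgeR; unadjusted p under 0.05 in 1) and 1 was called lower at 30 months, with summed medians of 73.4, 61.8, 84.3 and 42.4 CPM. Of 4 muscle stem cell markers 1 was called higher at each age, and their summed medians were 33.4, 68.6, 25.0 and 57.9 CPM. The part of these cells in the values of the proteasome genes was not tested.

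No gene of the remaining classes was called between regions. The assembly factor Psmd9 was at -0.76 ± 0.35 at 10 months (edgeR adjusted p = 0.185) and -0.49 ± 0.35 at 30 months (edgeR adjusted p = 0.475), and the assembly factor Psmd10 at 0.84 ± 0.68 and 0.57 ± 0.68 (edgeR adjusted p = 0.51 and 0.702). The activator subunits Psme1 and Psme2, which together form the interferon-inducible PA28 cap, were at -0.02 ± 0.24 and 0.28 ± 0.41 at 10 months, and at -0.28 ± 0.24 and 0.29 ± 0.41 at 30 months. The nuclear activator Psme3 was at -0.53 ± 0.39 and -0.15 ± 0.39, and Psme4, which encodes the large activator PA200, at -0.33 ± 0.19 and 0.06 ± 0.19. Psmf1 was at -0.88 ± 0.52 and 0.24 ± 0.52 (edgeR adjusted p = 0.334 and 0.858). The 4 chaperones that build the core (Psmg1, Psmg2, Psmg3 and Psmg4) lay between -0.73 and 0.59 at 10 months, and between -0.43 and -0.35 at 30 months. Psmc3ip, the gene that only shares the name, was at 0.64 ± 0.72 and 0.72 ± 0.72. Without 30m xNMJ replicate 5 the 30-month values were 1.55 for Psmc3ip, 0.75 for Psme2, 0.87 for Psmd10 and 0.19 for Psme4 (edgeR adjusted p = 0.193, 0.239, 0.501 and 0.589), and that library held the highest Psme2 of its group (115 CPM, where the group median was 24.6).

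The second question was whether proteasome transcripts change between 10 and 30 months in either region. No proteasome gene was called in NMJ or in xNMJ. In NMJ 0 of 47 were called by edgeR, against 0% of all genes tested, and 0 of 47 had an unadjusted p under 0.05, against 2.66% of all genes. In xNMJ 0 of 47 were called, against 0.0429% of all genes (6 genes), and 2 of 47 had an unadjusted p under 0.05, against 9.44% of all genes. DESeq2 likewise called 0 proteasome genes in either region, beside 0 of all 13990 genes in NMJ and 84 in xNMJ. Limma on log2(TPM + 1) also called 0 proteasome genes, beside 3 of all genes in NMJ and 0 in xNMJ (1 and 0 with TPM rescaled). The median log2 difference, 30 against 10 months, was 0.04 in both NMJ and xNMJ, beside 0.02 and 0.04 for all genes.

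In NMJ the medians of the core genes and of the 19S genes differed in sign with age, by small amounts, and this difference was not tested. Of the 14 core genes, 3 were above and 11 below 0, with a median of -0.13, and of the 17 genes of the 19S particle, 13 were above and 4 below, with a median of 0.06. The core median was -0.06, with 6 of 14 above 0, without 10m NMJ replicate 4, and -0.36 without 30m NMJ replicate 5. The 19S median was 0.03 without 30m NMJ replicate 3 and 0.12 without 10m NMJ replicate 7. For the single genes the intervals were wider than these medians. Psma5 differed by -0.31 (95% interval -0.75 to 0.13), Psma3 by -0.21 (-0.67 to 0.26), Psmb6 by -0.09 (-0.80 to 0.62) and Psmd8 by 0.09 (-0.30 to 0.47). The 3 immune subunits were all above 0, at 0.95 ± 0.98 for Psmb9, 0.82 ± 0.57 for Psmb8 and 0.70 ± 0.46 for Psmb10, each with an edgeR adjusted p of 1. Psmb9 was at 0.46 without 30m NMJ replicate 2. The lowest value was -0.35 ± 0.62 for the chaperone Psmg1, which was -0.76 without 30m NMJ replicate 6 and -0.08 without 10m NMJ replicate 1.

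In xNMJ the core genes had a median of 0.02 with age and the genes of the 19S particle 0.05. Without 30m xNMJ replicate 5 the core median was -0.18, with 5 of 14 genes above 0, that of the 19S genes -0.01, with 7 of 17 above 0, and that of all 47 genes -0.06. The core median was 0.15 without 10m xNMJ replicate 4. The alpha subunit Psma7 and the chaperone Psmg3 had unadjusted p under 0.05. For Psma7 the lowest, median and highest CPM were 156, 202 and 309 at 10 months, and 188, 314 and 419 at 30 months, and 7 of 8 older libraries lay above the younger median. The log2 difference was 0.47 ± 0.18 (edgeR adjusted p = 0.389). Psmg3 gave 1.33 ± 0.62 (edgeR adjusted p = 0.489), with CPM of 0.231, 7.03 and 14.1 at 10 months and 0.364, 13.1 and 61.7 at 30 months, the highest being replicate 2, without which the difference was 0.71 (edgeR adjusted p = 0.777). Both genes overlapped widely between the ages. Psmb9 was lowest, at -1.63 ± 1.03 (edgeR adjusted p = 0.674), and ran between -2.12 (without 30m xNMJ replicate 6) and -0.33 (without 10m xNMJ replicate 8) when single libraries were left out. Of the other immune subunits in xNMJ, Psmb8 was at 0.91 ± 0.60 and Psmb10 at -0.55 ± 0.48 without 30m xNMJ replicate 5 (edgeR adjusted p = 0.639 and 0.757).

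The interaction asks whether the regional difference itself changed with age. Here 0 of 47 proteasome genes were called by edgeR, against 0% of all genes, and 1 (Psma5) had an unadjusted p under 0.05, against 5.07% of all genes. DESeq2 called 0 proteasome genes, beside 10 of all 13990 genes. The median over the 14 core genes was -0.21, with 4 above and 10 below 0 (0.00 and 7 above without 30m xNMJ replicate 5, -0.43 and 3 above without 30m NMJ replicate 5), and over the 17 genes of the 19S particle 0.04. The 19S median turned to -0.08, with 6 above 0, without 30m NMJ replicate 5 and was 0.10 without 30m xNMJ replicate 1. The extremes were Psmb9 at 2.57 ± 1.42 and Psmg1 at -0.97 ± 0.89, both with an edgeR adjusted p of 1. Psmb9 was 1.28 without 10m xNMJ replicate 8 and up to 3.07 without another single library, and Psmg1 was -0.36 without 30m xNMJ replicate 1 and down to -1.37 without another.

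Proteins that work on the proteasome from outside the name rule were examined as a separate list of 19 genes. Between regions 3 were called lower in NMJ at 10 months, against 5.05% of all genes, and 2 at 30 months, against 4.25% of all genes, and none was called higher. The deubiquitinase Usp14, which sits on the 19S particle and trims ubiquitin from substrates, was lower at both ages. Its lowest, median and highest CPM were 67.7, 168 and 311 in 10m xNMJ, and 53.0, 73.4 and 109 in 10m NMJ. At 30 months they were 80.5, 186 and 379 in xNMJ, and 51.8, 85.3 and 106 in NMJ. At each age all 8 NMJ libraries lay below the xNMJ median and the groups overlapped at the low end of xNMJ. In log2 terms Usp14 differed by -1.12 ± 0.27 at 10 months (edgeR adjusted p = 0.0037) and -1.30 ± 0.27 at 30 months (edgeR adjusted p = 0.00125). The 10-month value was -0.82 (edgeR adjusted p = 0.106) with insert size as a covariate.

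The gene listed as AI314180, an older symbol of Ecpas, encodes the proteasome adaptor Ecm29. Its CPM were 86.2, 173 and 253 in 10m xNMJ and 68.1, 78.5 and 106 in 10m NMJ, with the lowest xNMJ library inside the NMJ range. NMJ differed from xNMJ by -1.07 ± 0.18 on the log2 scale at 10 months (edgeR adjusted p = 7.7e-05), and -0.51 ± 0.18 at 30 months (edgeR adjusted p = 0.0712). Nfe2l1, the transcription factor that induces proteasome genes when proteasome activity is short, had CPM of 238, 300 and 368 in 10m xNMJ and 170, 215 and 264 in 10m NMJ. All 8 NMJ libraries lay below the xNMJ median. Its log2 fold change was -0.48 ± 0.16 (edgeR adjusted p = 0.0418), a call that was lost when any of 11 libraries was left out in turn, and at 30 months it was 0.05 ± 0.16 (edgeR adjusted p = 0.897). Zfand5, which binds and activates the 26S proteasome, was lower at 30 months. Its CPM there were 383, 571 and 714 in xNMJ and 234, 337 and 478 in NMJ, a difference of -0.71 ± 0.17 on the log2 scale (edgeR adjusted p = 0.00565), with -0.13 ± 0.17 at 10 months. On the log2(TPM + 1) scale the median of all genes was itself 0.37 higher in NMJ at 10 months and 0.49 higher at 30 months. The calls of Zfand5 (-0.11, limma adjusted p = 0.698) and Nfe2l1 (-0.19, limma adjusted p = 0.523) were lost on that scale. Usp14 also missed the threshold there, at -1.002 for 10 months and -0.93 for 30 months (limma adjusted p = 0.0726 and 0.0841). The core maturation factor Pomp (0.15 ± 0.23 and 0.11 ± 0.23), the ubiquitin receptor Adrm1 (-0.13 ± 0.20 and -0.16 ± 0.20) and the unfoldase Vcp (-0.06 ± 0.15 and -0.04 ± 0.15) were not called at either age.

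Of 7 muscle ubiquitin ligases, 2 were called lower in NMJ at 10 months, against 5.05% of all genes, and 0 at 30 months, against 4.25% of all genes (edgeR; unadjusted p under 0.05 in 2). Fbxo32, which encodes the atrophy-linked ligase atrogin-1, had CPM of 198, 361 and 799 in 10m xNMJ and 120, 201 and 352 in 10m NMJ. Its log2 fold change was -1.05 ± 0.27 (edgeR adjusted p = 0.0071), with -0.69 ± 0.27 at 30 months (edgeR adjusted p = 0.107). Nedd4 had CPM of 162, 225 and 263 in 10m xNMJ and 115, 146 and 170 in 10m NMJ, and differed by -0.59 ± 0.14 (edgeR adjusted p = 0.0039). Both genes had every 10m NMJ library below the xNMJ median, and both calls were lost on the log2(TPM + 1) scale (-0.55 for Fbxo32 and -0.22 for Nedd4, limma adjusted p = 0.138 and 0.351). On that scale the median of all genes was itself 0.37 higher in NMJ at 10 months. Trim63, the gene of the ligase MuRF1, was at -0.23 ± 0.64 at 10 months (edgeR adjusted p = 0.881).

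Genes of class I antigen processing, which use the peptides that the proteasome makes, formed a list with 10 tested genes. At 10 months 9 of them were above 0, beside 7023 of all 13990 genes, and at 30 months 8, beside 6889 of 13990. H2-D1, a class I heavy chain gene, was the gene called, at 10 months, where 6.5% of all genes were called higher. Its CPM were 16.5, 49.4 and 71.0 in xNMJ and 48.9, 86.4 and 130 in NMJ, a difference of 0.89 ± 0.26 on the log2 scale (edgeR adjusted p = 0.0202), with 0.48 ± 0.26 at 30 months (edgeR adjusted p = 0.298). The 10-month call was lost without 10m NMJ replicate 4 (0.78, edgeR adjusted p = 0.0555) and with insert size as a covariate (0.73, edgeR adjusted p = 0.114). The peptide transporter genes Tap1 (0.71, edgeR adjusted p = 0.73) and Tap2 (1.77 ± 0.69, edgeR adjusted p = 0.095) were not called at 10 months. No gene named from these 3 lists was called with age in either region or in the interaction by edgeR.

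**Figure D5:**
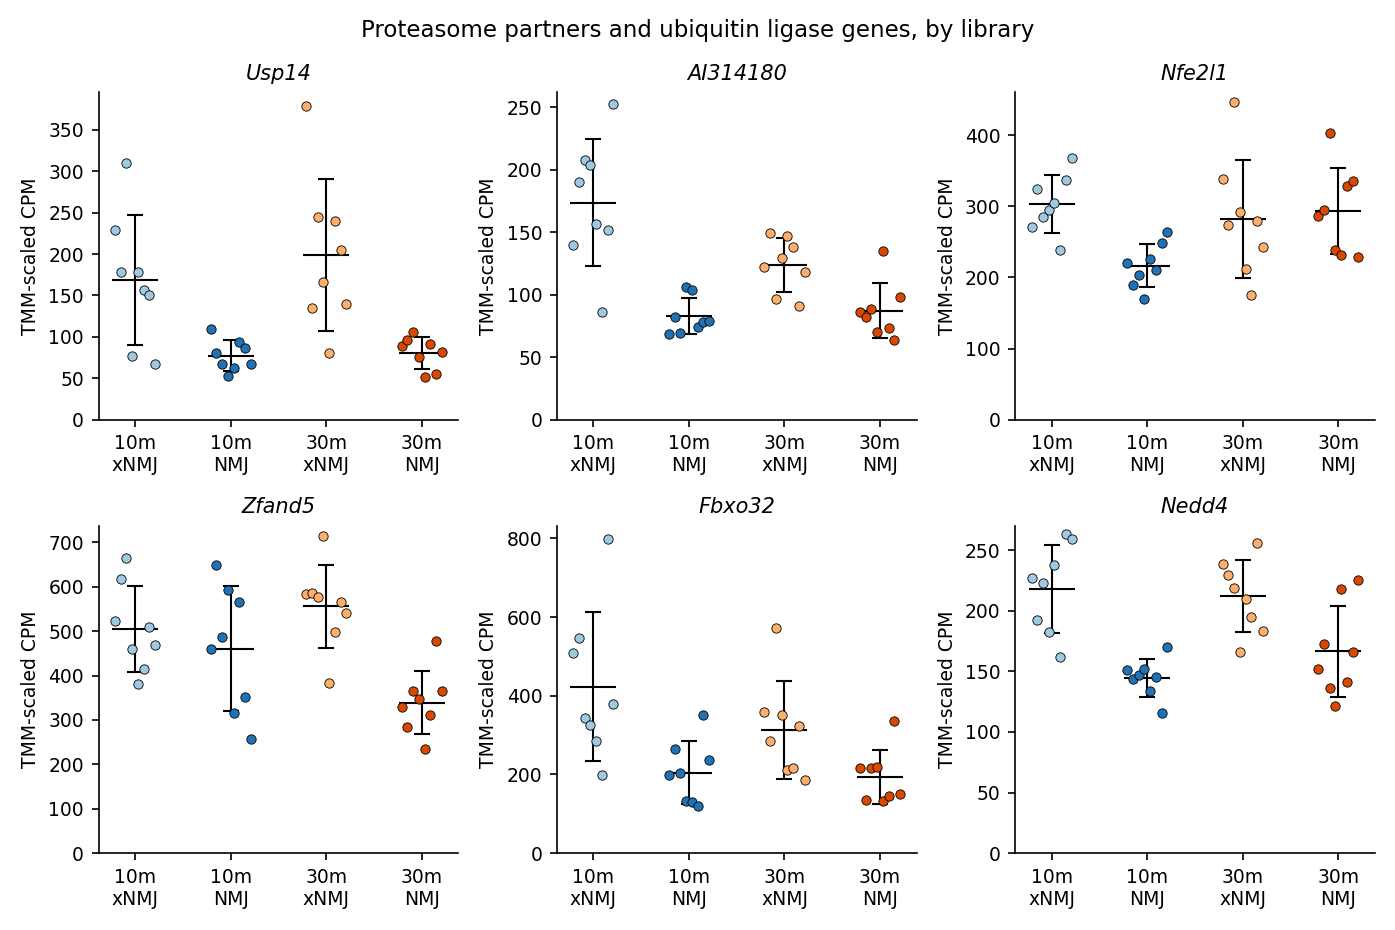
TMM-scaled CPM of Usp14, AI314180, Nfe2l1, Zfand5, Fbxo32 and Nedd4 by library, with bars at the mean and 1 SD of 8 libraries per group. The 10m NMJ libraries of Nedd4 run from 115 to 170 against 162 to 263 in 10m xNMJ, and all 6 genes overlap between the regions at both ages.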

How the data were processed

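The series holds 32 RNA-seq libraries of captured synaptic and extra-synaptic muscle regions. The authors trimmed single-end reads with cutadapt 1.9.1 and pseudoaligned them to protein-coding transcripts of GRCm38 with kallisto 0.43.1 (versions from the submitters' processing notes), and a read on several transcripts was shared among them. The authors deposited whole-number counts per gene without normalization, and TPM, scaled for transcript length and library total. Reads carry no molecular identifiers, and strand was not used. Where exons overlap those of another gene, reads inside the shared stretch cannot be told apart (in Psmb7, Psmb9, Psmc3, Psmc3ip, Psmd13, Psme1 and Psmg3).

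Counts were normalized with TMM factors and tested with edgeR 4.0.16 (R 4.3.3) in a quasi-likelihood fit of the 4 groups, for genes with at least 1 CPM in at least 8 libraries. P values were two-sided and adjusted over all genes tested, with a threshold of 0.05. The count floor was 3, and it covers counting error only. SE and 95% intervals came from the same fit. The steps were tested on simulated data. Alternatives used DESeq2 1.42.0, its size factors, no filter, only the compared groups, a replicate block, insert size, limma 3.58.1 on TPM as deposited and rescaled, and leaving out each library. The rescaled TPM and the joint omission of both 30-month replicate 5 libraries were chosen after seeing the data.

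The genes, lists and rules were chosen with earlier results of these data known. Given in full were genes past the threshold, the cutting subunits, and the highest and lowest gene of each comparison. Psmd6, Psma7 and other genes described outside this rule were chosen after their values were seen. Positions came from GENCODE M21, promoters from RefSeq, and figures from matplotlib 3.10.9. One further list of genes is not reported here.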

Additional observations from a re-analysis of the deposited data

Results flagged for a closer look

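Within groups of 8 libraries, 12 of 76 groups examined (19 genes in 4 groups) had a highest library far from the others, by a gap above Dixon's 95% critical value, which chance gives in about 1 of 20 groups. All values are TMM-scaled CPM, each beside the nearest other library of its group. In 30m NMJ replicate 5, the cutting subunit Psmb6 was at 736 beside 317, the alpha subunit Psma3 at 658 beside 385, and the alpha subunit Psma5 at 147 beside 95.8. In 10m NMJ replicate 4, Psma3 was at 621 beside 429. The lid subunit Psmd8 was at 266 beside 164 in 10m xNMJ replicate 7. The immunoproteasome subunit Psmb9 was at 17.4 beside 3.42 in 10m xNMJ replicate 8. Among the chaperones, Psmg1 was at 23.4 beside 12.3 in 10m NMJ replicate 1, at 36.3 beside 14 in 30m xNMJ replicate 1, and at 22 beside 8.15 in 30m NMJ replicate 6, and Psmg3 was at 61.7 beside 21.7 in 30m xNMJ replicate 2. The ligase gene Fbxo32 was at 572 beside 360 in 30m xNMJ replicate 3 and at 336 beside 219 in 30m NMJ replicate 7.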

How the results depend on the processing

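For the counts of proteasome genes called between regions at 10 months (2), the replicate block gave 4 (Psma3, Psma5, Psmb3 and Psmb6), insert size as a covariate 1 (Psma5) and limma on log2(TPM + 1) 15, and leaving out single libraries 1 to 2, with 1 without 10m NMJ replicate 4. At 30 months (1) no filter on low counts gave 0, DESeq2 2, rescaled TPM 2, TPM as deposited 27, and leaving out replicate 5 of both 30-month groups 2, while leaving out single libraries gave 1 to 1. All genes called in either direction at 30 months were 1220 of 24167 without the filter and 1711 of 13990 with DESeq2. They were 1536 of 13990 with rescaled TPM, 3561 with TPM as deposited, and 1358 of 13854 without both replicate 5 libraries. Comparisons between ages and the interaction gave 0 called proteasome genes under every alternative run for them. The log2 fold change of Psmb9 at 10 months (-1.19) ranged from -1.49 to 0.11 when single libraries were left out, and reversed only without 10m xNMJ replicate 8, which held 98 of its counts. On TPM as deposited, the calls of Psmd8 (-0.12), Zfand5 (-0.11) and Usp14 (-0.93, limma adjusted p = 0.0841) at 30 months, and of Nfe2l1 (-0.19), Fbxo32 (-0.55), Nedd4 (-0.22) and Usp14 (-1.002, limma adjusted p = 0.0726) at 10 months, were lost. The median of all genes on that scale was itself 0.37 higher in NMJ at 10 months and 0.49 higher at 30 months. Nfe2l1 at 10 months was not called with DESeq2 size factors (-0.44), no filter (-0.41) or insert size (-0.42), nor Usp14 with insert size (-0.82). For these changes the cause was not tested. The replicate block paired libraries of an age by number, although the deviations of same-numbered libraries correlated by -0.018 to 0.37, above 0.1 for 5 of 16 numbers. For 8 of 16 the best correlation was with the own number, a hint from the data and not from the design, since the labels do not say that a number marks an animal. At 30 months the block called the same 1 gene, Psmd8, beside 1531 of 13990 genes in either direction. Depth limits the precision for genes of few counts, among them Psmb9, Psmc3ip, Psmd5, Psmg1, Psmg3, Psmd10 and Psmf1.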
